A study of Homo sapiens with 6 samples.

Results

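The regions described here are the intervals of the genome at which N-Myc and JMJD6 were both called in neuroblastoma cells. N-Myc, the product of the MYCN oncogene, is a basic helix-loop-helix transcription factor that pairs with MAX and binds E-boxes, above all the canonical sequence CACGTG, at promoters and enhancers. JMJD6 is a jumonji domain protein of the nucleus, known as a lysyl hydroxylase and reported to act on histone arginines, and it has been described at enhancers. MYCN amplification and gain of 17q, the arm that carries JMJD6, are frequent in neuroblastoma, a tumour of the developing sympathetic nervous system.

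The 241 members are all rows of the deposited list of peaks common to N-Myc and JMJD6, out of 10492 distinct peaks in the series. They were chosen by the presence of a called peak of each protein at the same place, which makes co-occupancy the selection and not a result. The rule took 43.0% of the 561 JMJD6 peaks and 2.37% of the 10172 N-Myc peaks. Every one of the 241 intervals had the same start and end in the list of each protein. How these common edges were set is not known from the files, so widths of shared peaks describe the lists as deposited. They are compared below with the 9931 N-Myc peaks that overlap no JMJD6 peak (N-Myc-only) and the 320 JMJD6 peaks that overlap no N-Myc peak (JMJD6-only). Just outside the rule, the nearest JMJD6-only peaks lay 53 bp, 57 bp and 85 bp from an N-Myc peak, and 35 of the 320 lay within 1 kb of one.

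The 6 samples were chromatin immunoprecipitations followed by sequencing (ChIP-seq) from CHP-134, a human neuroblastoma cell line with MYCN amplification and 17q gain, 3 with an antibody against N-Myc and 3 with an antibody against JMJD6. All samples came from that single line, without a further genotype or agent given in the labels. The N-Myc samples were fixed with formaldehyde and the JMJD6 samples with disuccinimidyl glutarate and then formaldehyde, so the effect of the antibody cannot be told apart from that of the fixation. Each list holds only intervals found in all 3 replicates of a protein and gives positions alone, without height, score or reads. Depth is therefore not known from the files, and no replicate spread can be stated. Shares below are followed by exact (Clopper-Pearson) 95% intervals over peaks, which cover counting error only. Neighbouring peaks are not independent, so that p-values over peaks are too small where peaks lie in runs. Coordinates are 1-based on hg19, and all sequences are the plus strand of the same build (GRCh37).

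The shared peaks fell into a regulatory set, at promoters and enhancers, and a larger set away from listed promoters and enhancers, most of it in runs of neighbouring peaks. The sequences that follow show each. The first are the canonical E-boxes of shared peaks over listed promoters, with CACGTG in capitals. Windows that reach an annotated untranslated region are 30 bases long and the others 61.
RFX5 and GBAT2, chr1:151319515-151319575: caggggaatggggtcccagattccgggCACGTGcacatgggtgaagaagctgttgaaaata
RAB29, chr1:205744574-205744603: ctccgcaagcgtCACGTGcagggttgcctg
ALKBH8, chr11:107436070-107436130: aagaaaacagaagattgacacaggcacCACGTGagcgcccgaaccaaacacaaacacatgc
RAP2A, chr13:98085379-98085439: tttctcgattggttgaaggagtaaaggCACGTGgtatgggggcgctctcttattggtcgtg
PHB, chr17:47492466-47492526: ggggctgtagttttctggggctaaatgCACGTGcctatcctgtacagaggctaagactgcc
WBP2, chr17:73851509-73851538: tgacccgaacgtCACGTGgtaatagtttac
LINC00665, chr19:36822529-36822589: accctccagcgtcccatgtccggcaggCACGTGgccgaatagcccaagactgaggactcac
CD3EAP and PPP1R13L, first site, chr19:45909116-45909176: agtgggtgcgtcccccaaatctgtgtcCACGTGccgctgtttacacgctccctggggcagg
CD3EAP and PPP1R13L, second site, chr19:45909878-45909907: cccctttggatcCACGTGgtctgcaacctg
PES1, chr22:30987867-30987896: cacttcctcccgCACGTGccctgccaagga
VPS50 and HEPACAM2, chr7:92861664-92861693: ggtcggctcctcCACGTGaccacccactat

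The second set shows the runs of peaks in satellite sequence. Some of the pericentromeric satellites of human chromosomes are built from diverged copies of the pentamer GGAAT, which reads ATTCC on the other strand. Each window is the central 120 bases of the shared peak whose pentamer content was nearest the median of the pentamer-rich shared peaks on its chromosome, with both forms of the pentamer in capitals.
Chromosome 16, chr16:46394195-46394314: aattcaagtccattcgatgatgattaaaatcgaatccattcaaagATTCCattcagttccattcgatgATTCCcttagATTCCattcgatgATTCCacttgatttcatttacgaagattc
Chromosome 4, chr4:49099258-49099377: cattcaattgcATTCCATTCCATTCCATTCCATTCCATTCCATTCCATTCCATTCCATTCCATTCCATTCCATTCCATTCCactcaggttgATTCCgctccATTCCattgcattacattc
Chromosome 10, chr10:42596979-42597098: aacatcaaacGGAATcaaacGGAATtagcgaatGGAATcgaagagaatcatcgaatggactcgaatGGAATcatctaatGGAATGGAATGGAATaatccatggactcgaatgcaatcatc
The windows on chromosomes 16, 4 and 10 held 4, 16 and 7 pentamers, an array interrupted often on chromosome 16 and rarely on chromosome 4.

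The third set shows the AT-rich segments beside MYCN and at the GBP genes, with the dinucleotide CG in capitals. Each window is the central 120 bases of the shared peak nearest the median GC content of its segment.
Chromosome 2, within DDX1, chr2:15764378-15764497: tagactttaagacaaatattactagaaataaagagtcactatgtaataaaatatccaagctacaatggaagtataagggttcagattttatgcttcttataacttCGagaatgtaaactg
Chromosome 1, beside GBP2, chr1:89563029-89563148: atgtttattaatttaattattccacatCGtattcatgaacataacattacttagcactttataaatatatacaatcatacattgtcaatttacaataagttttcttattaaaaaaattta
GC content was 28.3% in the first and 18.3% in the second, and each held a single CG.

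Each shared peak was placed in a single group, in the order given here, with listed promoters and enhancers meaning those in the deposited list of either protein. On the mitochondrial genome there were 7 peaks. A further 86 (35.7%, 95% interval 29.6 to 42.1%) had at least 20% of their bases in the pentamer. Of the others, 48 (19.9%, 15.1 to 25.5%) overlapped a promoter (the 1 kb flanks of a RefSeq start site), and 20 (8.30%, 5.14 to 12.53%) overlapped a typical enhancer or super-enhancer without a promoter. The chromosome 2 segment between 14 and 18 Mb held 19 more (7.88%, against 10% of JMJD6-only and 0.403% of N-Myc-only peaks). The chromosome 1 segment between 89 and 90 Mb held 11 (4.56%, against 4.06% and 0.0503%), and 37 lay on chromosome Y or near (within 1 Mb) a gap of 50 kb or more in the assembly. Only 13 peaks (5.39%, 2.90 to 9.05%) fell in none of these groups, against 2988 N-Myc-only peaks (30.1%) and 129 JMJD6-only peaks (40.3%).

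**Figure D1:**
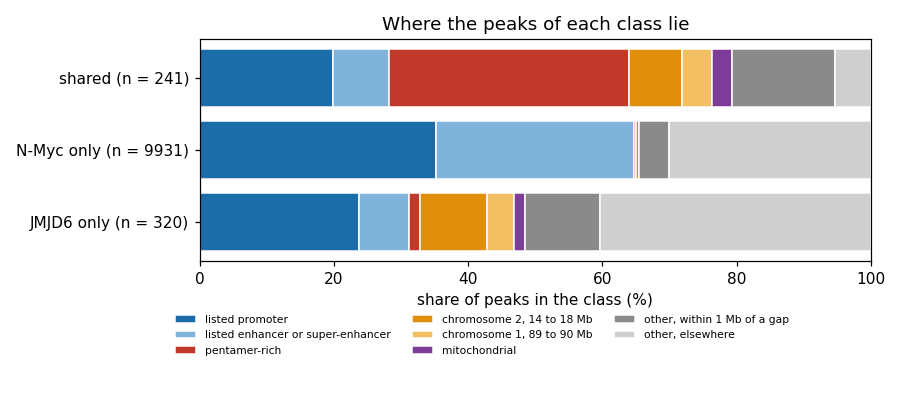
Share of peaks (%, x axis) in each location group for the shared, N-Myc-only and JMJD6-only peaks (y axis), each peak counted once. The pentamer-rich group takes 35.7% of the shared peaks, 0.252% of the N-Myc-only peaks and 1.56% of the JMJD6-only peaks.

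Most of the shared peaks lay in a small number of places or near gaps of the assembly. Mitochondrial peaks, peaks on chromosome Y or within 1 Mb of a large gap, and the segments of chromosomes 1 and 2 are called clustered segments below, and they held 174 of the 241 shared peaks (72.2%), 1227 of the 9931 N-Myc-only peaks (12.4%) and 100 of the 320 JMJD6-only peaks (31.3%). The 174 were not all in runs, since 27 of them had no other shared peak within 100 kb, and 7 were nuclear promoter peaks. In the deposited lists of regions bound by both proteins, 53 of the 67 peaks outside these segments overlapped a promoter, enhancer or super-enhancer (79.1%, 67.4 to 88.1%), against 14 of the 174 inside (8.05%, 4.47 to 13.1%). The segments were drawn with these peaks in view, so this contrast, and each share outside them, is a description.

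Over all peaks, shared peaks overlapped a listed promoter less often than N-Myc-only peaks. The counts were 49 of 241 (20.3%, 15.4 to 26.0%) and 3501 of 9931 (35.3%, 34.3 to 36.2%), with an odds ratio of 0.469 (95% interval 0.334 to 0.646, two-sided Fisher's exact test, adjusted p = 2.10e-06 by Benjamini-Hochberg over 6 tests). Outside the clustered segments the order was the opposite, with 41 of 67 shared peaks (61.2%, 48.5 to 72.9%) and 3087 of 8704 N-Myc-only peaks (35.5%) over a promoter (odds ratio 2.87, 1.71 to 4.90). Leaving out segments drawn around shared peaks that mostly miss promoters raises this share by construction, so no test is given. JMJD6-only peaks stood at 77 of 320 (24.1%) in all and 70 of 220 (31.8%) outside the segments. The shared peaks did not differ detectably from them in all (odds ratio 0.805, 0.525 to 1.23, Fisher's exact test, adjusted p = 0.308), and outside the segments the odds ratio was 3.38 (1.85 to 6.22). With peaks closer than 10 kb counted once, the shared and N-Myc-only shares were 34.1% and 35.0% (odds ratio 0.961, 0.656 to 1.39, Fisher's exact test, adjusted p = 0.856), and the ratio to JMJD6-only peaks, at 25.9%, turned to 1.48 (0.921 to 2.36, adjusted p = 0.125).

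Enhancers, with or without a promoter, were overlapped less often by shared than by N-Myc-only peaks and more often than by JMJD6-only peaks. Peaks at an enhancer without a listed promoter, pentamer-rich peaks left out, were 20 of 241 shared (8.30%) and 24 of 320 JMJD6-only (7.50%). For N-Myc-only peaks this share was 29.5%. Over all peaks, the shared and JMJD6-only shares away from listed promoters were thus close, and their difference was not tested. Among the shared 20 were peaks over RNU5E-1, RNU1-1 and SNORD118, small RNA genes treated below, so not all were far from a gene start. Outside the clustered segments, 14 of 67 shared peaks (20.9%, 11.9 to 32.6%) overlapped an enhancer or super-enhancer bound by both proteins and no promoter bound by both. The JMJD6-only share there was not worked out. Of all shared peaks 59 of 241 overlapped a listed enhancer or super-enhancer (24.5%, 19.2 to 30.4%), below the 57.8% of N-Myc-only peaks (odds ratio 0.236, 0.173 to 0.320, Fisher's exact test, adjusted p = 3.04e-24) and above the 16.9% of JMJD6-only peaks (odds ratio 1.60, 1.03 to 2.47, adjusted p = 0.0398). The latter difference did not pass among the wider peaks of each class (Fisher's exact test, adjusted p = 0.0857) or with at least 50% of the peak inside the region (adjusted p = 0.110). With peaks closer than 10 kb counted once the shared share was 42.2%, and the odds ratios were 0.574 against N-Myc-only peaks (0.399 to 0.820, Fisher's exact test, adjusted p = 0.00239) and 3.33 against JMJD6-only peaks (2.05 to 5.41, adjusted p = 2.01e-06). Outside the clustered segments 47 of 67 shared peaks overlapped an enhancer (70.1%, 57.7 to 80.7%), beside 20.5% of JMJD6-only and 58.8% of N-Myc-only peaks, with odds ratios of 9.14 (4.73 to 17.9) and 1.65 (0.956 to 2.94). At promoters the listed intervals of shared peaks were wider, with medians of 607 bp against 450 bp for N-Myc-only and 522.5 bp for JMJD6-only peaks. A wider interval meets a region more easily. The part that the making of the lists had in these widths was not tested.

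**Figure D2:**
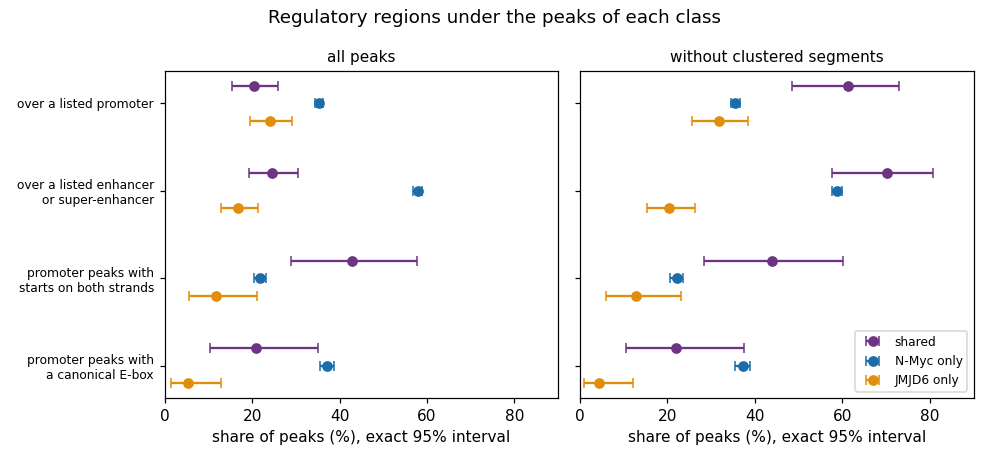
Share of peaks (%, x axis) with each feature (y axis) for shared, N-Myc-only and JMJD6-only peaks, over all peaks on the left and without clustered segments on the right; points are shares and bars exact 95% intervals. The shared share over promoters moves from 20.3% to 61.2% between the panels, while the share of promoter peaks with starts on both strands stays near 43% (42.9% and 43.9%).

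At promoters, the shared peaks lay at gene pairs on opposite strands more often than the peaks of either protein alone. Listed promoters of both strands were overlapped by 21 of the 49 shared promoter peaks, 1 of the 49 being mitochondrial (42.9%, 28.8 to 57.8%), by 760 of 3501 N-Myc-only peaks (21.7%, 20.4 to 23.1%) and 9 of 77 JMJD6-only peaks (11.7%, 5.49 to 21.0%). The odds ratio was 2.70 against N-Myc-only peaks (1.45 to 4.97, Fisher's exact test, adjusted p = 0.00200) and 5.67 against JMJD6-only peaks (2.14 to 15.7, adjusted p = 0.000188). Outside the clustered segments it was 18 of 41 (43.9%), with odds ratios of 2.75 (1.39 to 5.37) and 5.30 (1.91 to 15.2). No test is given there, since the segments were drawn with the peaks in view. Among the wider peaks of each class, those at or above the class median, the shares were 53.6%, 23.6% and 10.9%. Each class was cut at its own median, so this setting does not make the widths equal. By their listed edges shared promoter peaks were wider (median 607 bp against 450 bp and 522.5 bp), and the part of width was not tested. A gene may have several listed starts. By the closest starts, 17 of the 21 pairs were divergent, the minus-strand start lying before the plus-strand start, and the distance between the starts ran from 26 bp to 900 bp with a median of 201 bp.

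The closest pair was POLR1A, the largest subunit of RNA polymerase I, and PTCD3, a protein of the mitochondrial ribosome, with starts 26 bp apart under a peak of 1127 bp (chr2:86332498-86333624). DSE and TSPYL4 followed with 53 bp (chr6:116575171-116575551). The widest spaced pair was LAMTOR2, part of the Ragulator complex on lysosomes, and UBQLN4, a ubiquilin that escorts ubiquitinated proteins to the proteasome, 900 bp apart. Its peak of 667 bp covered the start of LAMTOR2 and reached only the flank of UBQLN4 (chr1:156024008-156024674). FBXO15, an F-box protein, and TIMM21, a component of mitochondrial protein import, had starts 645 bp apart (chr18:71815628-71816002). In the other 4 pairs the plus-strand start of the closest listed starts came first: RFX5 with GBAT2, CD3EAP with PPP1R13L, C19orf70 with HSD11B1L and PRDM10 with LINC00167. Of the pairs named here, DSE with TSPYL4 and PRDM10 with LINC00167 were picked after their values were seen.

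Shared promoter peaks sat close to the start. The midpoint was within 200 bp of the nearest listed start in 32 of 49 (65.3%), against 1825 of 3501 N-Myc-only peaks (52.1%) and 45 of 77 JMJD6-only peaks (58.4%), a description without a test. The median distance was 112 bp for shared peaks, 186 bp for N-Myc-only peaks and 177 bp for JMJD6-only peaks. In 38 of the 49 the peak covered the start itself. The 10 widest ran from 838 bp, at INTS9 and HMBOX1, to 2162 bp, at the mitochondrial RNR2, with RNU11, WDR74, RFX5, POLR1A, CD3EAP, RNU12, PSMD3 and TOB2 between. The other 11 missed it, with WDR74 and TOB2 the farthest out, their midpoints at -1353 and -1322 bp, upstream. MXI1 had its peak from 829 to 1375 bp downstream of the nearest listed start, and RAP2A from -1270 to -753 bp, upstream. Median GC content of the promoter peaks was 56.8% and the median CpG ratio, observed over expected, was 0.724.

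**Figure D3:**
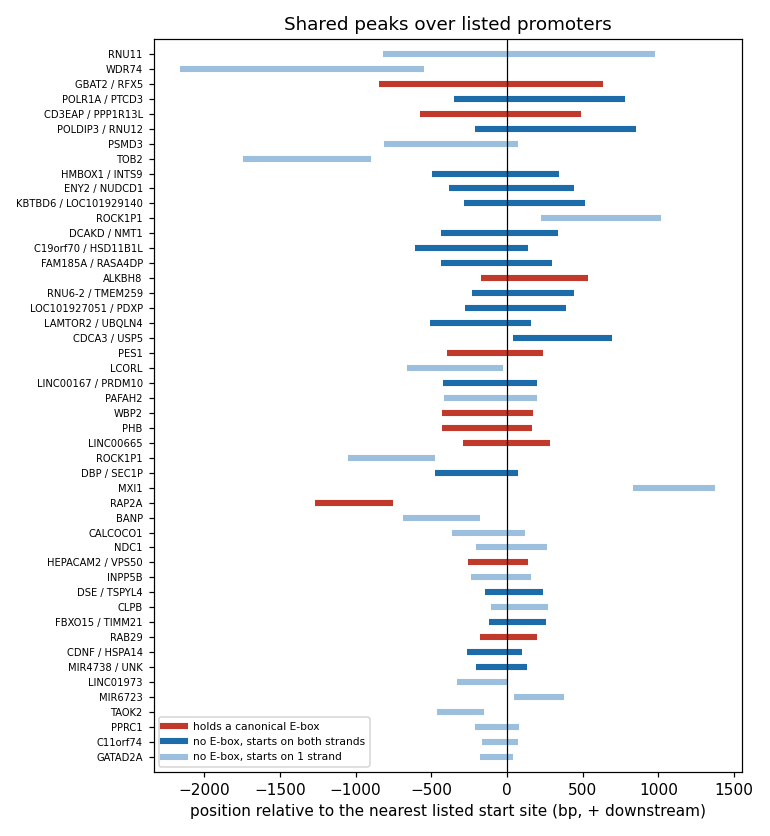
The 48 nuclear shared peaks over listed promoters as intervals relative to the nearest listed start site (bp, x axis, positive downstream), 1 line per peak ordered by width and labelled with the listed genes (y axis); colours mark a canonical E-box, or starts on both strands or 1 strand without one. Most intervals span the start, and the widest nuclear one, at RNU11, runs from -821 to 979 bp.

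The canonical E-box was less frequent in shared promoter peaks than in N-Myc-only promoter peaks and more frequent than in JMJD6-only ones. It occurred in 10 of 48 nuclear shared peaks (20.8%, 10.5 to 35.0%), 1299 of 3501 N-Myc-only peaks (37.1%, 35.5 to 38.7%) and 4 of 76 JMJD6-only peaks (5.26%, 1.45 to 12.9%). The odds ratio was 0.446 against N-Myc-only peaks (0.198 to 0.916, Fisher's exact test, adjusted p = 0.0230 over 5 tests) and 4.74 against JMJD6-only peaks (1.25 to 21.8, adjusted p = 0.0209). Outside the clustered segments, as a description without a test, it was 9 of 41 against 1149 of 3087 N-Myc-only peaks. The odds ratio was 0.474, with an interval (0.198 to 1.02) that reached 1. Against JMJD6-only peaks it was 6.28 (1.42 to 37.8). Among the wider peaks it was 7 of 27 against 801 of 1996 N-Myc-only (odds ratio 0.522, 0.186 to 1.29, Fisher's exact test, adjusted p = 0.167). In the central 200 bp, a window of equal length in every class, it was 4 of 48 against 814 of 3501 N-Myc-only (0.300, 0.0781 to 0.828, Fisher's exact test, adjusted p = 0.0207). With peaks closer than 10 kb counted once the ratio was 0.461 (0.203 to 0.954, Fisher's exact test, adjusted p = 0.0385).

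The 11 E-boxes of these 10 peaks are those printed above. In RAB29, a Rab GTPase, the E-box lay 11.5 bp from the centre of the peak and 21 bp from the nearest listed start. The E-box of WBP2, a WW domain binding protein, was 23 bp from a start, that of VPS50, a vesicle tethering protein divergent with HEPACAM2, 27 bp, and that of PES1, a ribosome biogenesis factor, 45 bp. These 4 E-boxes were in annotated untranslated regions. At RFX5, a regulator of MHC class II genes, and at LINC00665, a long non-coding RNA, the distances were 60 bp and 61 bp. PHB encodes prohibitin of the inner mitochondrial membrane, with its E-box 229 bp from the start, and ALKBH8 a tRNA-modifying enzyme, at 361 bp. The peak of CD3EAP, a subunit of RNA polymerase I, and PPP1R13L, an inhibitor of p53, had 2 E-boxes, 320 bp and 286 bp from the nearest start. RAP2A, a Ras-related GTPase, had the most distant, at 1065 bp.

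Of 11 further sequences searched on both strands of the promoter peaks, none passed the test between shared and N-Myc-only peaks (two-sided Fisher's exact test, the smallest unadjusted p being 0.192 and every adjusted p 1). With 48 shared peaks the intervals were wide, for the sequence of smallest p, CATGCG, an odds ratio of 1.60 with 0.770 to 3.11. The non-canonical E-box CACGCG was found in 29.2% of shared and 29.2% of N-Myc-only peaks, and the variants written CATGTG in 27.1% and 22.4% and then CATGCG in 27.1% and 18.9%. GC boxes (GGGCGG) were in 54.2% and 57.7%, and CCAAT boxes in 56.3% and 48.4%. The ETS core CCGGAA was in 31.3% and 34.3%, and the CRE core TGACGT in 18.8% and 13.5%. TATAAA stood in 10.4% and 10.8%. The sequence GCATGCGC, which contains one of the variants above, was in 6.25% and 6.63%, and AAGATGGC in 4.17% and 6.43%. TCTCGCGA was in 0 of 48 shared peaks, which allows a share of up to 7.40% by the exact interval, and in 3.11% of N-Myc-only peaks.

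Genes for small nuclear and nucleolar RNAs, the RNA components of the spliceosome and of ribosomal RNA processing, lay under several of the widest shared peaks. This grouping was made after the peaks were seen and carries no test. Of 234 nuclear shared peaks 8 overlapped a numbered GENCODE small RNA gene without a pseudogene suffix (3.42%, 1.49 to 6.63%), against 17 of 9931 N-Myc-only peaks (0.171%, 0.0998 to 0.274%) and 0 of 315 JMJD6-only peaks (up to 1.16%). With pseudogene names included the counts were 11, 28 and 3. In 9 of the 11 shared cases the whole gene was inside the peak, and the centres of gene and peak were 51 bp to 618.5 bp apart. The median width of the 11 peaks was 1209 bp, against 574 bp over all shared peaks.

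The U5 RNA genes RNU5A-1 and RNU5B-1 were each covered by a shared peak in the same enhancer of chromosome 15 (chr15:65588172-65589072 and chr15:65596589-65598121), and RNU5E-1 by one of 1703 bp on chromosome 1 (chr1:11967770-11969472). RNU1-1, a U1 gene, lay under the widest of them, 2328 bp (chr1:16839185-16841512), and RNU1-2 under the edge of another (chr1:17222571-17223779). U1 genes have close copies, and 66.2% and 78.7% of the 75-base sequences in these intervals were unique in the genome, so the place of the signal is uncertain. RNU6-2, a U6 gene, was central in its peak, with 51 bp between the centres. SNORD118, the U8 RNA needed for ribosomal RNA processing, was covered by a peak of 769 bp in which every 75-base sequence was unique. SNORD3A, a U3 gene, was covered in part by a peak with 20.8% unique sequence. By the promoter lists, RNU11 and RNU12, the U11 and U12 RNAs of the minor spliceosome, belong here too, with peaks of 1800 bp and 1068 bp and full uniqueness.

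Super-enhancers bound by both proteins numbered 7, and 5 held a shared peak, 3 of them over a small RNA gene. In the super-enhancer of SLC3A2 and WDR74 (chr11:62597955-62630283) the single shared peak of 1610 bp covered RNU2-2P, a U2 copy. In that of NBPF1 and CROCC (chr1:17221599-17254556) it was the peak at RNU1-2, and in that of TMEM107 and AURKB (chr17:8042494-8127548) the peak at SNORD118. The super-enhancer of DLG4, a synaptic scaffold, and DVL2, a Wnt pathway protein (chr17:7094896-7156913), held a peak of 988 bp, and the one within NBAS (chr2:15514352-15529085) a peak of 1747 bp. These 5 had 4, 6, 10, 4 and 1 N-Myc peaks in the order named, each with 1 JMJD6 peak. The super-enhancers of TTC8 and FOXN3 and a second one of NBAS had none shared, the closest N-Myc and JMJD6 peaks being 1485 bp and 85 bp apart.

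Typical enhancers bound by both proteins numbered 65, and 48 held a shared peak (73.8%, 61.5 to 84.0%). Of the 48, 34 overlapped a promoter bound by both and 14 did not. Besides the enhancers at RNU5E-1 and RNU5A-1, those named here were assigned to GRIN2B and ATF7IP, SERP2 and TSC22D1, TOB2 and TEF, SPEF2 and PRLR, HSPB1 and YWHAG, DUSP4 and TMEM66, C8orf4 and ZMAT4, GADD45G, MYCN and DDX1, and in 2 cases NBAS alone. The one of MYCN and DDX1 was short, 0.186 kb, and lay between the 2 genes (chr2:15996200-15996385). The enhancer of GADD45G, a stress-induced growth regulator, had a shared peak of 1264 bp (chr9:92289518-92290781), the widest of the 14 outside the small RNA loci.

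Promoters bound by both numbered 84, and 76 held a shared peak (90.5%, 82.1 to 95.8%). The other 8 were those of BTRC, PTDSS2, PRCC, CCND1, PCF11, USP36, YWHAQ and RNF44. CCND1, which encodes cyclin D1, came closest, with 95 bp between its N-Myc and JMJD6 peaks. At RNF44, PTDSS2 and PCF11 the gaps were 512 bp, 594 bp and 759 bp. BTRC, PRCC, USP36 and YWHAQ had no peak of the common N-Myc list within the promoter although they are listed for both proteins.

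Among the distinct gene symbols with an N-Myc-bound promoter, 75 of 4150 (1.81%) had one bound by both, and this is the background for the gene lists. The lists were drawn up with earlier results of these data known, so their counts are given as a description only. Ribosome biogenesis and RNA polymerase I had 4 of 25 N-Myc-bound genes in both: POLR1A, CD3EAP, PES1 and the nucleolar deubiquitinase USP36. Small nuclear RNA genes had 3 of 8, RNU11, RNU12 and RNU6-2. Mitochondrial import, cristae and proteostasis had 6 of 35: PHB, CLPB, a disaggregase of the intermembrane space, TIMM21, PTCD3, C19orf70, a subunit of the MICOS complex, and PPRC1, a coactivator of mitochondrial genes. Ubiquitin ligases, deubiquitinases and the proteasome had 8 of 60: PSMD3, a proteasome regulatory subunit, USP5, USP36, UBQLN4, KBTBD6, FBXO15, BTRC and RNF44. Integrator and 3-prime end processing had 2 of 13, INTS9 and the cleavage factor PCF11. The MYC, MAX and MXD network had 1 of 5, MXI1, which competes for MAX, and the G1 cyclins and their kinases 1 of 9, CCND1. No shared peak was found over the promoters of CCND1, PCF11, USP36, BTRC or RNF44, and the promoters of the rest each had one. An intron of BTRC did hold a shared peak, of 295 bp (chr10:103124498-103124792). That peak covered all of RNU2-59P, a U2 copy with a pseudogene name, with 52 bp between the centres.

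The largest group of shared peaks was the pentamer-rich one. At least 20% of bases lay in GGAAT or ATTCC in 86 of 234 nuclear shared peaks (36.8%, 30.6 to 43.3%), 25 of 9931 N-Myc-only peaks (0.252%) and 5 of 315 JMJD6-only peaks (1.59%). The threshold was set after the values were seen, so no test is given; members on either side of it were at 19.8% and 20%, and with 30% required the counts were 35, 21 and 3. All 86 were intergenic. Chromosome 16 had 34 of them, chromosome 4 had 18, chromosome 10 had 15, chromosome Y had 13, chromosome 2 had 4, and chromosomes 20 and 21 had 1 each. Median pentamer content was 23.9% on chromosome 16, 24.9% on chromosome 10 and 59.8% on chromosome 4.

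These peaks had a low GC content and a high CpG ratio for it. Median GC content of the 86 was 36.8% and the median CpG ratio 1.17, against 56.8% and 0.724 for promoter peaks. The shared peaks of the chromosome 2 segment had 33.1% and 0.128, and those of the chromosome 1 segment 32.9% and 0.137. Peaks rich in CpG, with GC content of at least 50% and a ratio of at least 0.6, were 35 of 234 shared (14.96%, 10.6 to 20.2%) and 2962 of 9931 N-Myc-only (29.8%), with an odds ratio of 0.414 (0.280 to 0.597, Fisher's exact test, adjusted p = 3.41e-07). Outside the clustered segments the order was the opposite, 32 of 67 (47.8%) against 2617 of 8704 (30.1%), with an odds ratio of 2.13 (1.27 to 3.54), again without a test. With peaks closer than 10 kb counted once the difference did not pass (odds ratio 0.833, 0.548 to 1.24, Fisher's exact test, adjusted p = 0.392).

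**Figure D4:**
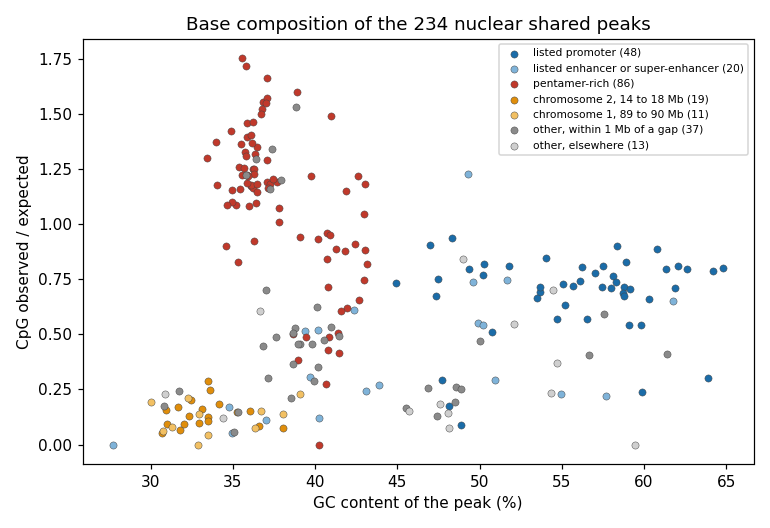
GC content (%, x axis) against the CpG ratio, observed over expected (y axis), for the 234 nuclear shared peaks, coloured by location group. Pentamer-rich peaks (median 36.8% and 1.17), promoter peaks (56.8% and 0.724) and peaks of the chromosome 2 segment (33.1% and 0.128) take separate areas.

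Shared peaks held repeated sequence more often than the peaks of either protein alone. Fewer than 50% of 75-base sequences were unique in 26 of 234 shared peaks (11.1%, 7.39 to 15.9%), 38 of 9931 N-Myc-only peaks (0.383%) and 3 of 315 JMJD6-only peaks (0.952%). Of the 26, 18 were among the 86 pentamer-rich peaks and 8 were others, at SNORD3A and the ROCK1P1 promoter among other places. The odds ratio was 32.5 against N-Myc-only peaks (18.6 to 56.1, Fisher's exact test, adjusted p = 8.93e-26) and 13 against JMJD6-only peaks (3.89 to 67.7, adjusted p = 3.41e-07). The size depended on the setting. With peaks closer than 10 kb counted once the ratios were 21.6 and 7.37 (Fisher's exact test, adjusted p = 2.54e-09 and 0.00286). Among the wider peaks the ratio to N-Myc-only peaks was 8.79 (Fisher's exact test, adjusted p = 0.0182), on 3 of 116 shared peaks. With the limit at 90% unique, 99 of 234 shared peaks were counted (42.3%), 292 of 9931 N-Myc-only peaks and 25 of 315 JMJD6-only peaks, with ratios of 24.2 and 8.51. Outside the clustered segments the counts were 3 of 67 shared, 21 of 8704 N-Myc-only and 1 of 220 JMJD6-only peaks. The ratios there were 19.4 (3.61 to 67.2) and 10.3 (0.800 to 541), a description without a test. Among pentamer-rich shared peaks the median unique share was 62.5% on chromosome 16, 85.2% on chromosome 4 and 94.5% on chromosome 10. Copies missing from the assembly are not counted in these values, and the part of mapping in these peaks was not tested.

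The 241 peaks formed 109 stretches when peaks under 100 kb apart were joined, 87 of them a lone peak. The largest had 40 peaks in 49.9 kb of chromosome 16 (46385796 to 46435649), covering 55.2% of it, with 2 N-Myc-only peaks and no JMJD6-only peak between them. Chromosome 4 had 17 in 62 kb (49094653 to 49156652), covering 11.6%, and chromosome 10 had 13 in 52.4 kb (42356004 to 42408436), covering 11.96%. Chromosome 1 had 11 in 128 kb at GBP2 and GBP7, genes of interferon-induced GTPases (89559070 to 89687034), together with 13 JMJD6-only and 5 N-Myc-only peaks. On chromosome 2 there were 9 each in 89.99 kb (14922330 to 15012317) and in 284.7 kb over NBAS and up to DDX1 (15481772 to 15766514).

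The stretches of chromosomes 1 and 2 had wider peaks and unique, pentamer-poor sequence. Their median unique share was 100%, their median pentamer content was 1.14% to 1.76%, and their median peak widths were 929 bp, 741 bp and 1316 bp, against 343 bp to 534.5 bp in the satellite stretches. The widest nuclear shared peak, 4153 bp, lay within the second stretch of chromosome 2. That stretch lies in the segment upstream of MYCN, and the line carries MYCN amplification. Copy number was not measured here, and its part in these peaks was not tested.

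**Figure D5:**
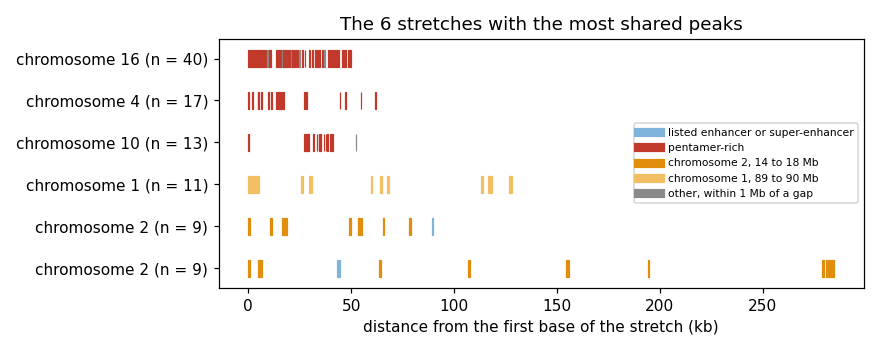
Positions of the shared peaks in the 6 stretches with most of them, as distance from the first base of the stretch (kb, x axis), 1 row per stretch (y axis) with the number of peaks in its label and colours for the location group (bars are outlined, so narrow peaks look slightly wider). The 40 peaks of chromosome 16 fill 49.9 kb, whereas 9 peaks of chromosome 2 spread over 284.7 kb.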

How the data were processed

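ChIP-seq peak lists for N-Myc and JMJD6 (3 samples each) were used as deposited, as start and end positions in bp on hg19 together with lists of bound promoters, enhancers and super-enhancers. Per the methods and the submitters' processing notes, the authors aligned reads with BWA, called peaks against input with MACS2 2.1.1.20160309, used SAMtools and bedtools, and kept peaks found in all 3 replicates. Promoters were 1 kb on each side of RefSeq start sites. Enhancers came from H3K27ac signal stitched within 12.5 kb. The values deposited are positions, with no score.

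Overlap meant at least 1 bp. Sequence features were read from GRCh37 and places from GENCODE v44 lifted to that build; its mitochondrial sequence may differ from that of hg19, so that no mitochondrial sequence or position is given. Fisher's exact tests, two-sided, compared shares, with Benjamini-Hochberg adjustment within families of 6 (regions), 5 (sequence) and 11 (motifs). The test was also run on simulated counts of independent peaks, which do not copy the runs of neighbouring peaks and so cannot show its error there. The members, gene lists and clustered segments were chosen with earlier results of these data known. Named genes were, by rule, those of co-bound super-enhancers, gene-list members bound by both, promoter peaks with CACGTG and co-bound promoters without a shared peak. The rule also took the 10 widest promoter peaks, the 5 stretches with most peaks (the last tied) and co-bound enhancers overlapping no co-bound promoter. Small RNA genes, the pentamer and the windows of chromosomes 4, 10, 1 and 2 were added after values were seen. Python 3.11.15, SciPy 1.17.1, pandas 2.3.3, pysam 0.24.0, numba 0.67.0 and matplotlib 3.10.9 were used. One co-bound enhancer is not reported here by name.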

Additional observations from a re-analysis of the deposited data

How the results depend on the processing

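Without clustered segments, 4 odds ratios of the tested shares changed direction: promoter share, 2.87 against N-Myc-only and 3.38 against JMJD6-only peaks, enhancer or super-enhancer share against N-Myc-only peaks, 1.65, and CpG-rich share, 2.13. By construction this setting leaves 67 shared peaks and raises their shares at promoters. With peaks closer than 10 kb counted once, the promoter share against JMJD6-only peaks turned from 0.805 to 1.48, neither called. Leaving out the clustered segments ended the call, at an adjusted p of 0.05, of the repeated-sequence share against JMJD6-only peaks (10.3). It did the same for the E-box share against N-Myc-only peaks (0.474). The segments were drawn with the peaks in view, so these changes are a description. Counting peaks closer than 10 kb once ended the call of the promoter share (0.961) and the CpG-rich share (0.833) against N-Myc-only peaks. Keeping the wider peaks of each class did so for the enhancer share against JMJD6-only peaks (1.59) and the E-box share against N-Myc-only peaks (0.522), and requiring at least 50% of the peak inside the region did so for the former (1.48); the cause was not tested. Among the wider peaks, repeated sequence was found in 3 of 116 shared and 0 of 156 JMJD6-only peaks, which gives no finite odds ratio (adjusted p = 0.0955 by Fisher's exact test). In the central 200 bp the canonical E-box was in 4 of 48 shared and 0 of 76 JMJD6-only promoter peaks, again without a finite odds ratio (adjusted p = 0.0207 by Fisher's exact test). The other 36 values over the planned settings were unchanged. The odds ratios among them, with every one for starts on both strands, kept direction and side of the threshold. The count of motifs that passed stayed at 0, and shares of co-bound promoters stayed inside the interval first given. No single motif passed under any of these settings; 37 of their 44 values kept direction, and 7 odds ratios crossed 1: CACGCG (1.11), GGGCGG (1.14) and GCATGCGC (1.08) without clustered segments, CACGCG (1.02) and TATAAA (1.05) with peaks counted once, GGGCGG (1.55) among the wider peaks and CATGCG (0.868) in the central 200 bp. The share of co-bound promoters with a shared peak was 85.2% with overlapping promoters merged. Among settings chosen after the values were seen, pentamer-rich shared peaks were 39.3% at 10% of bases, 14.96% at 30% and 9.83% at 50%, and peaks over small RNA genes 7.46% without clustered segments.

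No paired analysis was possible because the lists hold no column per sample, and no replicate was left out for the same reason. Height, read depth and signal in input limit every statement and were not analysed here.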
